A study of Mus musculus with 12 samples.

Results

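The EP3B probes are the oligonucleotides of a mouse m6A epitranscriptomic array, made for mRNAs and lncRNAs, whose probe names start with ASMM10EP3B. The array holds 8497 of them. Left out were the 5 probes matched to Ntmt1, RP23-272P19.8, 4930542D17Rik, RP23-71C23.1 and RP23-309A11.2, so that 8492 members remained. All other transcript probes of the array, 48057 in number, have names that start with ASMM10EP3A, and the members were set against them. The prefix is not an official RNA class. It is used here because every lncRNA of the study's list of leading lncRNAs was matched to a probe that carries it, and the number of EP3B probes is not the number of lncRNA probes that the study gives for the array. The files pair no probe with a gene and hold no probe sequence, so only the listed lncRNAs have names here, and the lung label was not checked against marker genes.

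Lung RNA came from 3 control and 3 asthma mice, all female BALB/c mice, with ages of 8 to 10 weeks in the labels and a younger range in the study's methods. The asthma mice were sensitized to ovalbumin (OVA) with intraperitoneal injections of 0.01% OVA on days 0 and 7. They then received aerosols of 2.5% OVA on 3 occasions a week over 7 weeks, whereas the control mice were injected and challenged with phosphate-buffered saline (PBS). RNA bound by an anti-m6A antibody (IP) was labeled with Cy5, the RNA left in the supernatant (Sup) with Cy3, and both fractions of a mouse were hybridized to 1 array, with the dyes never swapped. Bulk lung tissue was used, so fewer cells of a type and less RNA per cell cannot be told apart.

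m6A is a methyl group on adenosine inside RNA. It is written by a methyltransferase complex that includes METTL3 and METTL14, can be removed by demethylases such as ALKBH5 and FTO, and is bound by reader proteins that act on splicing, export, stability and translation. Long noncoding RNAs (lncRNAs) carry it too, as the well-studied lncRNAs Xist and Malat1 show, and many lncRNAs are present at lower levels than mRNAs. An antibody pulls down whole transcripts here, so a higher IP signal can come from more RNA of a transcript or from a larger methylated share of it, which is why IP, Sup and their log2 ratio (IP minus Sup) are given side by side.

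Signals are given as log2 values after background correction, relative to the mean of the spike-in probes of the same channel and array, so that 0 is the signal of an average spike-in probe. These were 114 probes taken as spike-in from their names, since the study does not name its spike-in RNAs. Of them, 24 were well above background in IP on all 6 arrays and 52 in Sup, so the zero point rests largely on probes near background. A spot was called detected where the scanner marked it well above background. Among the 308 negative control spots, between 0.649% and 1.30% were detected in IP and between 0 and 0.325% in Sup. The number of arrays, not a read depth, limits the precision. Asthma mice 1 to 3 and control mouse 1 were on slide 1, control mice 2 and 3 on slide 2, and all arrays carry 1 scan time.

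The EP3B probes were detected less often than the EP3A probes in both fractions. In IP, 53.8%, 54.3% and 47.4% of the EP3B probes were detected in the control mice and 58.8%, 58.0% and 57.3% in the asthma mice. Of the EP3A probes, 69.0%, 68.1% and 62.3% were detected in the controls and 72.0%, 71.5% and 72.0% in asthma. On every array the EP3B share was the lower one, with a mean difference of -14.2 percentage points (SD 0.815, n = 6 arrays, p = 0.0312 in a two-sided exact sign-flip permutation test, adjusted p = 0.0417 over 8 comparisons). This p is the smallest that 6 arrays can give. It covers the spread between arrays of 1 design, which all hold the same probes.

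In Sup the detected share of EP3B probes was 69.0%, 74.4% and 69.4% in the controls and 73.2%, 69.9% and 69.6% in asthma, against 82.4% to 86.1% of the EP3A probes over the 6 arrays. The difference in Sup was -12.7 percentage points (SD 0.694, n = 6 arrays, exact sign-flip p = 0.0312, adjusted p = 0.0417), again with the lower value for EP3B on all 6 arrays. With the scanner's other flag, positive and significant against background, the differences were smaller, at -10.3 points in IP and -6.89 in Sup. Over all mice together, 3800 members (44.7%) were detected in IP on all 6 arrays and 3020 (35.6%) on none, against 59.9% and 22.9% of EP3A probes. Neither channel detected 1766 members (20.8%) on any array, against 10.8% of EP3A probes. Sup without IP was more frequent than the opposite: 447 members were detected in Sup on all 6 arrays and in IP on none, and 4 members the other way round, which is 5.26% and 0.0471% of the members against 4.70% and 0.0166% of EP3A probes. These differences between the series were not tested.

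At matched brightness the IP detection of the series was close. When EP3A probes were weighted to the Sup signal of the members in 20 brightness bins, the difference in IP detection was 0.545 percentage points (SD 0.680, n = 6 arrays), higher for EP3B on 5 of 6 arrays (exact sign-flip p = 0.156, adjusted p = 0.179). With the other flag it was 0.799 points, above 0 on all 6 arrays (exact sign-flip p = 0.0312). Matched the other way, on IP signal, Sup detection remained lower for EP3B by a mean of -2.39 points (SD 0.289) on all 6 arrays, with p = 0.0312 in the exact sign-flip test and an adjusted p of 0.0417. It was -1.47 points with the other flag and -1.06 when matched on the mean of both channels, with the same exact p. Matching on 1 noisy channel can itself shift the other channel, which is why both directions of matching are given.

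The median signal of EP3B probes was below that of EP3A probes on every array in both fractions. In IP the EP3B median was -0.15, -0.19 and -0.14 in the controls and -0.17, -0.21 and -0.13 in asthma, on the log2 scale relative to spike-in. The EP3A medians lay between 0.10 and 0.27, so the series did not overlap. The mean difference was -0.36 in IP (SD 0.07) and -0.39 in Sup (SD 0.05), each with n = 6 arrays, an exact sign-flip p of 0.0312 and an adjusted p of 0.0417. Without background correction these were -0.62 and -0.77. Among probes detected in both fractions on all 6 arrays, 3764 members and 28612 EP3A probes, the differences were smaller, at -0.19 in IP (SD 0.02) and -0.15 in Sup (SD 0.02). Such medians describe spots, since the signal of different probes also depends on each probe's own response.

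IP minus Sup differed little between the series. Over all probes the EP3B median was 0.15, 0.14 and 0.17 in the controls and 0.16, 0.14 and 0.13 in asthma. The EP3A median was 0.14, 0.10 and 0.12 in the controls and 0.17, 0.16 and 0.15 in asthma. The difference averaged 0.0079 (SD 0.031, n = 6 arrays, exact sign-flip p = 0.469, adjusted p = 0.469). At matched brightness it was -0.0087 (SD 0.0070), below 0 on all 6 arrays (exact sign-flip p = 0.0312, adjusted p = 0.0417), but it was -0.0004 without background correction (p = 0.844, exact), -0.0126 in the deposited values (p = 0.281, exact), and 0.0082 when brightness was the IP signal alone (p = 0.0625, exact).

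The difference depended on how bright the probes were. In 11 of the 20 brightness bins, the brightest among them, the EP3B median of IP minus Sup was above the EP3A median on all 6 arrays. In the dimmer ones of these bins it was above by at most 0.04. In bins 15 to 19 of 20, counted from the dimmest, it was lower on all 6 arrays, by a mean of -0.05, -0.07, -0.05, -0.11 and -0.14. At least 98.8% of the members in these bins were detected in both fractions on all arrays. In the brightest bin the order was the opposite, with EP3B at 0.55 and EP3A at 0.50. These bins were compared as a description, with no test.

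Among the 3764 members detected in both fractions on all 6 arrays, IP minus Sup at matched brightness was below that of EP3A probes on each array. The differences were -0.04, -0.03 and -0.03 in the controls and -0.03, -0.03 and -0.06 in asthma. Their mean was -0.0363 (SD 0.0104, n = 6 arrays, exact sign-flip p = 0.0312). It stayed below 0 with p = 0.0312 in the exact test under each of the 5 other settings tried for this value, between -0.0469 with brightness from Sup alone and -0.0151 with brightness from IP alone. Without matching it was -0.0115 (p = 0.156, exact).

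Single members ranged widely in IP minus Sup. Among the members detected in both fractions on all arrays, IP minus Sup averaged over the mice ran from -0.99 at the 5th percentile to 1.14 at the 95th, with a median of 0.20. The pattern was shared between mice: across these 3764 probes the ratio of any 2 mice correlated with Pearson's r between 0.866 and 0.968 over the 15 pairs of mice, a description across probes of arrays that share design and dye. IP and Sup of a mouse correlated with r between 0.928 and 0.947. The median SD within a group was 0.19 in IP, 0.17 in Sup and 0.16 in the ratio.

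Among the members detected in both fractions on all 6 arrays, the listed lncRNA RP23-436D9.1, described further on, had the highest mean ratio, 2.59 (SD 0.295, n = 6). Probe ASMM10EP3B101198207 followed with 2.24 (SD 0.48, n = 6), with 2.80, 2.62 and 2.32 in asthma and 1.64 in the lowest control. Both were brighter in IP than in Sup in every mouse. The lowest mean ratio was that of ASMM10EP3B107279298, with -3.26, -3.86 and -3.76 in the controls and -3.48, -3.35 and -3.15 in asthma. ASMM10EP3B106967904 was next with a mean of -2.86 (SD 0.35, n = 6). Control and asthma values overlapped for all 4. These probes were picked as the extremes, so their ratios are a description.

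Between the groups, detection in IP was higher in asthma. The EP3B share averaged 51.8% in the controls (SD 3.86, n = 3) and 58.0% in asthma (SD 0.718, n = 3), and the groups did not overlap. The difference was 6.20 percentage points, and 3.97 without control mouse 3, the lowest. The EP3A share moved the same way, by 5.33 points, and the series difference changed by 0.871 points with overlapping groups. In Sup the EP3B share was 70.9% in both groups. Counted per probe, 80 members (0.942%) were detected in IP on all 3 asthma arrays and on no control array, and 1 member the other way round, against 445 (0.926%) and 3 EP3A probes. For Sup the counts of members were 16 (0.188%) and 12 (0.141%), against 0.15% and 0.11% of EP3A probes.

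The spread of the members' IP signal was wider in asthma. The interquartile range of the 8492 members was 0.992, 1.098 and 0.757 in the controls and 1.331, 1.315 and 1.151 in asthma, with no overlap, while the Sup range was 1.07, 1.40 and 1.05 against 1.28, 1.19 and 1.06. The median moved little, whereas the 75th percentile of IP was 0.60, 0.61 and 0.44 in the controls and 0.78, 0.74 and 0.71 in asthma. The 25th percentile was lower on average in asthma, at -0.39, -0.489 and -0.317 in the controls and -0.55, -0.575 and -0.44 in asthma, with overlap. It lies near background, and the IP signal of the negative control spots, given further on, was also lower on average in asthma. How much of the wider range comes from near-background spots was not tested. EP3A probes showed a wider IP range in asthma too, from a mean of 1.46 to 1.80.

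Compared with EP3A probes at the same brightness, the members' median did not separate the groups in IP. The difference EP3B minus EP3A in IP was -0.0060, 0.0069 and -0.0083 in the controls and 0.0333, 0.0313 and -0.0178 in asthma. In Sup it was -0.0054, -0.0107 and -0.0109 in the controls and 0.0302, 0.0326 and -0.0041 in asthma, so that the groups did not overlap, with asthma 0.0286 above control. For IP minus Sup both groups averaged -0.0092. These 3 comparisons used only probes with a value on all 6 arrays, unlike the matched mean of -0.0087 given before. Comparing 3 mice with 3 cannot give an exact p below 0.1, and no p is given for these values.

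Single members were tested with limma over all transcript probes that were detected in each mouse of 1 group or of both, and called at a fold change above 1.5. In IP, 4546 members were tested and 305 were higher in asthma at an unadjusted P below 0.05, which is 6.71% of the members against 6.86% of all tested probes. Another 7 members, 0.154%, were lower, against 0.0562% of all probes. EP3A probes weighted to the members' IP brightness were called higher in 5.79% and lower in 0.0362%. The shares of higher calls thus lay near the background, and the difference between the series was not tested. After Benjamini-Hochberg adjustment 6 members were higher (0.132%, against 0.286% of all probes) and none lower (0.00535% of all probes).

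The 305 members had log2 differences from 0.59 to 4.28 with a median of 0.78. Of these, 297 were detected in IP on all 6 arrays, and 210 had groups that did not overlap. Over all probes with a value on each array, asthma values lay above all control values in IP for 13.5% and below them for 8.07%, and the corresponding shares of the members were 11.6% and 11.4%. These shares, and the like ones below for Sup and IP minus Sup, include undetected probes. The median IP signal of the negative control spots was -0.50, -0.61 and -0.41 in the controls and -0.75, -0.73 and -0.55 in asthma. Of the 305 members, 279 also had a higher mean in Sup, with a median Sup difference of 0.35. Called in both fractions were 25 members, which is 8.20% of the IP calls and 92.6% of the Sup calls.

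The count in IP depended on single mice and on scaling. Without control mouse 1, 2 or 3 it was 280, 631 and 121, and without asthma mouse 1, 2 or 3 it was 134, 156 and 584. The controls left out gave 6.14%, 13.9% and 2.6% of the tested members, against 6.34%, 15.4% and 3.36% of all tested probes. The asthma mice left out gave 2.89%, 3.37% and 12.2%, against 3.42%, 4.04% and 11.4%. After adjustment the counts of members were 0, 16 and 0 for the controls left out and 0, 0 and 113 for the asthma mice. The adjusted shares of all tested probes were 0.0828%, 0.841% and 0.0815%, then 0.0633%, 0.0738% and 2%. With the slide as a block, which compares asthma with control on slide 1 alone, 152 members were higher, 15 were lower and none passed the adjusted threshold. The higher and lower calls were 3.35% and 0.33% of the members, against 5.6% and 0.378% of all tested probes. Scaling moved the split: 97.8% of the calls were higher with spike-in scaling, 78.6% with 75th percentile scaling (121 higher, 33 lower) and 70.0% after quantile normalization (70 higher, 30 lower). Over all tested probes, 99.2%, 83.5% and 64.7% of the calls were higher with these scalings. The median difference of all tested probes moved from 0.15 to -0.11 with 75th percentile scaling and to -0.02 with quantile normalization. Of the 305 members, 305 kept a higher mean in asthma under the percentile and 303 under the quantile scaling, and 118 and 69 were still called.

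In Sup, 5811 members were tested. At the unadjusted P, 27 were higher (0.465%, against 0.584% of all tested probes) and 42 lower (0.723%, against 1.32%), and at matched brightness the EP3A shares were 0.495% and 1.13%. No member passed the adjusted P in limma in either direction, where 0.0597% and 0.00221% of all probes did. With 75th percentile scaling 161 were higher and 34 lower, so that the share of higher calls went from 39.1% to 82.6%, and with quantile normalization it was 67.5%. Over all tested probes that share was 30.7%, 68.1% and 46.9% with spike-in, percentile and quantile scaling. Control mice 1, 2 and 3 left out in turn gave 18, 87 and 14 higher and 139, 10 and 59 lower calls. The higher calls were 0.304%, 1.49% and 0.238% of the members, against 0.402%, 1.67% and 0.383% of all tested probes. The lower calls were 2.35%, 0.171% and 1%, against 4.44%, 0.251% and 1.86%. Asthma mice 1, 2 and 3 left out in turn gave 13, 13 and 269 higher and 19, 14 and 58 lower calls. Here the higher calls were 0.223%, 0.221% and 4.51% of the members, against 0.351%, 0.418% and 4.18% of all tested probes. The lower calls were 0.326%, 0.238% and 0.972%, against 0.712%, 0.471% and 1.48%. Sup values of asthma lay wholly above control for 1.80% of members and wholly below for 10.6%, against 2.28% and 13.2% of all probes.

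For IP minus Sup, 4491 members were tested and 416 were called higher in asthma (9.26%, against 12.1% of all tested probes), none lower (0.00808% of all). After adjustment 368 were higher (8.19%, against 11.3%) and none lower (0.00538% of all). EP3A probes weighted to the same brightness were called higher after adjustment in 9.67%. Asthma values lay wholly above control for 21.3% of members and wholly below for 9.66%, against 28.1% and 6.5% of all probes. Whether these shares differ between the series was not tested. Among the 416 members the median difference was 0.52 in IP and -0.20 in Sup, with 404 higher in IP and 121 higher in Sup. The counts differed with the scaling of the 2 dyes. There were 17 members higher and 10 lower with 75th percentile scaling, 4 and 2 after quantile normalization, 1 and 14 after loess within arrays, and none passed the adjusted threshold under these 3. The higher calls were 0.379%, 0.0891% and 0.0223% of the members, against 1.02%, 0.148% and 0.167% of all tested probes. The lower calls were 0.223%, 0.0445% and 0.312%, against 0.221%, 0.0619% and 0.213%. Of all tested probes, too, none passed the adjusted threshold there. The share of higher calls was 100% with spike-in scaling, 63.0% and 66.7% with percentile and quantile scaling and 6.67% with loess. Over all tested probes it was 99.9%, 82.3%, 70.5% and 44% in the same order. With the slide as a block 179 members were higher, 42 of them after adjustment. This is 3.99% and 0.936% of the members, against 6.65% and 1.86% of all tested probes. Leaving out control mouse 1 gave 746 higher calls, 734 of them after adjustment, and leaving out control mouse 3 gave 250 and 197. The 746 and 250 calls were 16.5% and 5.44% of the members, against 19.9% and 8.31% of all tested probes. The 734 and 197 adjusted calls were 16.3% and 4.28% of the members, against 19.6% and 7.03%. Asthma mice 1 and 2 left out in turn gave adjusted counts of 121 (2.65%) and 0, against 4.45% and 0% of all tested probes.

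The listed lncRNAs among the members number 15. They were matched by the fold change and P of the study's list in the deposited log2 values, so their direction there is fixed by the match, and the study chose them on these samples. For Fgf18, Saa3, Nfyc and Brox the list uses the symbols of protein-coding genes. Those genes encode a fibroblast growth factor with a role in lung development, an acute-phase serum amyloid protein, a subunit of the transcription factor NF-Y and a BRO1-domain protein. Which noncoding transcript the probes read was not analysed here. The remaining names are clone-based or gene-model names of transcripts for which no function is stated here.

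Fgf18 was the member with the largest IP difference of all 4546 tested. Its IP values were 2.45, 3.32 and 2.62 in the controls and 7.47, 7.31 and 6.45 in asthma. Sup moved along, with 2.20, 3.38 and 2.71 in the controls and 6.55, 6.33 and 5.82 in asthma. All 3 asthma mice lay above all 3 controls in both fractions, also against control mouse 1 of the same slide. The log2 difference was 4.28 in IP (SE 0.34, 19.4-fold, limma adjusted p = 0.00998) and 3.47 in Sup (SE 0.33, 11.1-fold, limma adjusted p = 0.0523). With spike-in scaling IP minus Sup rose by 0.81 (SE 0.14, limma adjusted p = 0.00818). This rise depended on the scaling of the dyes. After loess and Aquantile normalization the control and asthma means of Fgf18 were 2.86 and 6.41 in IP and 2.87 and 6.58 in Sup. On that scale Sup rose slightly more than IP, and the ratio was not tested there.

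Nfyc was high in 2 asthma mice and less so in the third. Its IP values were 1.61, 1.53 and 1.23 in the controls and 4.65, 4.60 and 2.87 in asthma, and its Sup values were 1.71, 1.82 and 1.55 against 3.86, 3.69 and 2.28. The groups did not overlap in either fraction. IP differed by 2.58 (SE 0.48, limma adjusted p = 0.127) and IP minus Sup by 1.001 (SE 0.12, limma adjusted p = 0.00701).

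Saa3 had no IP signal well above background on any control array, with -0.31, -0.33 and -0.28 there and 0.26, 0.22 and 0.54 in asthma. Its Sup signal was detected in all mice, at -0.17, 0.02 and 0.02 in the controls and 0.70, 0.37 and 0.62 in asthma. Both fractions were separated between the groups. The IP difference was 0.65 (limma adjusted p = 0.124). Between group means after loess and Aquantile normalization, IP was 1.48-fold higher in asthma. IP minus Sup differed by 0.04 with overlapping groups. The Sup difference was 0.60 (SE 0.12, limma adjusted p = 0.472). The IP call was lost with 75th percentile scaling (0.39) and without asthma mouse 3 (0.55), and the Sup call without control mouse 1 (0.54), asthma mouse 1 (0.53) or asthma mouse 3 (0.57).

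RP24-118B12.1 and RP24-226D9.3 were likewise undetected in IP in the controls. RP24-118B12.1 had IP values of -0.25, -0.42 and -0.38 in the controls and -0.13, -0.03 and 0.69 in asthma, so that asthma mouse 3 carried most of the difference. The log2 difference was 0.53 (limma adjusted p = 0.300) and was not called. It was 0.27 both without asthma mouse 3 and with 75th percentile scaling, and it was called without asthma mouse 1 (0.68) and without background correction (1.09). RP24-226D9.3 had -0.32, -0.47 and -0.38 against -0.22, -0.24 and -0.07, a difference of 0.21 that was not called (limma adjusted p = 0.345). It turned to -0.05 with 75th percentile scaling and was called without background correction, at 0.68. No lower bound on the fold, set against the lowest signal well above background, is given for either. After loess and Aquantile normalization that bound exceeded the fold of these spike-in-scaled means. In the deposited values the IP differences of these dim probes were larger, at 3.27 for RP24-118B12.1, 2.72 for RP24-226D9.3 and 2.50 for Saa3. Each was called there at the unadjusted P.

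Of these 5 lncRNAs with higher deposited IP values, 3 (Fgf18, Nfyc and Saa3) were called higher in IP at the unadjusted P and Fgf18 also after adjustment over all probes. The study chose all 5 for a higher IP value in these samples, and Saa3, RP24-118B12.1 and RP24-226D9.3 passed the filter through the asthma group alone, so the count is a description and supports no direction. The same 3 were called in Sup at the unadjusted P and none after adjustment. IP minus Sup was called for Fgf18 and Nfyc with spike-in scaling. With percentile, quantile or loess scaling no member passed the adjusted P for IP minus Sup.

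The other 10 listed lncRNAs had lower deposited IP values in asthma. In IP, 5 of them (RP24-182L3.1, Brox, RP23-436D9.1, RP24-496C22.4 and RP24-95P4.2) were called lower at the unadjusted P and none after adjustment, with differences from -1.49 to -0.25. They too were chosen by the study on these samples, so this count is a description. In Sup, 5 were also called lower at the unadjusted P, with RP23-157H17.2 in place of RP24-95P4.2. None passed after adjustment, and the differences ran from -1.62 to -0.14. They make up 5 of the 7 members called lower in IP and 5 of the 42 called lower in Sup. IP minus Sup was called for 1 of the 10 with spike-in scaling, and it was higher in asthma.

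RP24-182L3.1 had the largest difference of the 10 in both fractions. Its IP values were 4.33, 4.43 and 2.62 in the controls and 1.67, 2.52 and 2.73 in asthma, so that control mouse 3 lay within the asthma range in IP. In Sup the groups were apart, with 2.83, 3.64 and 2.31 against 0.95, 1.48 and 1.48. The difference was -1.49 in IP (SE 0.53, limma adjusted p = 0.254) and -1.62 in Sup (SE 0.35, limma adjusted p = 0.499). The IP call was lost without control mouse 1 or 2 or asthma mouse 1 or 2, at values of -1.22, -1.17, -1.17 and -1.60.

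Brox had IP values of 2.43, 1.92 and 1.44 in the controls and 0.54, 1.11 and 1.35 in asthma, and Sup values of 1.25, 1.16 and 0.83 against -0.20, 0.14 and 0.29. The groups overlapped in neither fraction. IP differed by -0.93 (limma adjusted p = 0.238) and Sup by -1.002 (limma adjusted p = 0.353). The IP call was lost without control mouse 1 (-0.68) or asthma mouse 1 (-0.70).

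RP23-436D9.1 was the member with the highest mean IP minus Sup, which was 2.85, 2.17 and 2.27 in the controls and 2.82, 2.62 and 2.79 in asthma, and the groups overlapped. Its IP values were 3.80, 3.66 and 3.07 against 2.90, 2.72 and 2.91, a difference of -0.66 (limma adjusted p = 0.225). Its Sup values were 0.95, 1.49 and 0.80 against 0.08, 0.10 and 0.12, a difference of -0.98 (limma adjusted p = 0.454). Both fractions were lower in each asthma mouse than in any control. The IP call was lost without control mouse 1 (-0.52) or asthma mouse 2 (-0.60).

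RP24-496C22.4 fell more in Sup than in IP. In IP it had 3.699, 4.282 and 4.200 in the controls and 3.275, 3.462 and 3.671 in asthma. In Sup it had 3.01, 4.29 and 3.70 against 2.32, 2.18 and 2.48. The groups did not overlap in either. The difference was -0.59 in IP (limma adjusted p = 0.236) and -1.34 in Sup (limma adjusted p = 0.499), and IP minus Sup was higher by 0.75 (SE 0.18, limma adjusted p = 0.0202). With the slide as a block the IP difference was -0.23 and no longer called, and the IP call was also lost without control mouse 2 (-0.48) or 3 (-0.52) and without asthma mouse 1 (-0.49) or 2 (-0.59).

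RP24-95P4.2 completed the 5 called in IP, with 0.44, 1.17 and 0.62 in the controls and 0.22, 0.07 and 0.10 in asthma. Control mouse 2 was the highest and the groups did not overlap. The difference was -0.61 (SE 0.20, limma adjusted p = 0.236). It was -0.30 with the slide as a block and -0.39 without control mouse 2, neither of them called. The call was also lost without asthma mouse 2 (-0.58) or 3 (-0.59).

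RP23-157H17.2 had IP values of 5.24, 5.59 and 3.88 in the controls and 3.76, 4.60 and 3.72 in asthma. The groups overlapped in IP, and the difference of -0.87 was not called (limma adjusted p = 0.390). It was called with 75th percentile scaling (-1.13), quantile normalization (-1.41), no background correction (-1.01), the deposited values (-1.22) and without control mouse 3 (-1.39), and also with the replicate number as a block. In Sup, 3.79, 4.71 and 3.30 stood against 2.64, 3.04 and 2.23, with no overlap and a difference of -1.30 (limma adjusted p = 0.499). The Sup call was lost with the slide as a block (-1.16) and without asthma mouse 3 (-1.09).

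RP23-153M14.4 overlapped in both fractions, with IP at 1.61, 2.31 and 2.04 in the controls and 1.45, 1.39 and 1.70 in asthma. Its IP difference of -0.48 was under the fold change needed for a call, while it was called with 75th percentile scaling (-0.74), quantile normalization (-0.80), no background correction (-0.64), the deposited values (-0.92) and without control mouse 1 (-0.67). The Sup difference of -0.18 turned to 0.05 with the slide as a block and to 0.06 without control mouse 2.

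The other 3 were near background. RP23-334L22.1 was not well above background on any asthma array in either fraction, with control IP values of -0.19, -0.08 and -0.01 and asthma values of -0.31, -0.43 and -0.28. The IP difference was -0.25 (limma adjusted p = 0.291), and between group means on the loess and Aquantile scale IP was 1.15-fold higher in the controls. RP23-132N23.1 had 0.17, -0.04 and 0.10 in the controls and -0.46, -0.37 and -0.17 in asthma. Gm17276 had 0.21, -0.06 and -0.13 against -0.28, -0.35 and -0.22. The groups did not overlap in IP for any of these 3, and none reached the fold change for a call in the spike-in-scaled values. The IP signal of the negative control spots, given above, was also lower on average in asthma. Whether the lower values of these 3 go beyond that shift was not tested. RP23-132N23.1 was called with 75th percentile scaling (-0.67) or without background correction (-0.68). In the deposited values their IP differences were larger, between -1.25 and -0.95, and all 3 were called at the unadjusted P.

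Beside Fgf18, the other 5 members past the adjusted P in IP have no name here. Their differences ran from 0.90 to 1.66 (SE 0.10 to 0.15), and each was detected in IP in all 6 mice with no overlap between the groups. ASMM10EP3B100006420 had IP values of 1.26, 1.01 and 0.90 in the controls and 2.82, 2.49 and 2.83 in asthma. In Sup it had 0.05, 0.47 and 0.26 against 1.15, 0.87 and 1.19, also apart. It was 3.16-fold higher in IP (log2 1.66, SE 0.15, limma adjusted p = 0.0156) and 1.75-fold in Sup (limma adjusted p = 0.397).

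ASMM10EP3B102420681 had 0.679, 0.367 and 0.696 in the controls and 1.978, 1.851 and 1.893 in asthma. It was 2.51-fold higher in IP (log2 1.33, SE 0.13, limma adjusted p = 0.0188). Both probes remained called at the unadjusted P under every alternative run for them, while with the slide as a block no member passed the adjusted P. In the opposite direction 1 unnamed member met the rule for naming. ASMM10EP3B101959930 had 1.437, 2.626 and 1.942 in the controls and 1.291, 1.350 and 1.252 in asthma, a difference of -0.70 (limma adjusted p = 0.284), with control mouse 2 highest. With the slide as a block the difference was -0.14, and without control mouse 2 it was -0.39. The call was lost in both cases and without any one of control mouse 3 and the 3 asthma mice.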

How the data were processed

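Images were read with Agilent Feature Extraction version 11.0.1.1, and the authors deposited spot intensity values for both dyes, together with local background and quality flags. A further deposited table holds log2 values, each column equal to the log2 processed signal less 1 constant. Both dye files of a mouse were identical (6 pairs) and were read as 1 array. Median intensity was corrected with limma's normexp (offset 50) and log2-transformed, and the average of 114 spike-in probes, recognised by their names, was subtracted per channel and array. Non-uniform spots were left out.

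Groups were compared with limma version 3.58.1 in R 4.3.3 over all transcript probes passing the filter, with Benjamini-Hochberg adjustment. Whether replicates come from separate cages or days is not given in the sources used here, and p-values measure the spread between these mice. Brightness matching used 20 bins of equal numbers of members and bins with at least 20 EP3A probes, and within-array differences of medians (means for detection) were tested by exact sign-flip permutation in scipy 1.17.1 with Python 3.11.15. The fold values on the loess and Aquantile scale, given for Saa3 and RP23-334L22.1, come from channel values on a scale other than that of the differences. They are open to dye bias, equal the fold between group means and are no lower bounds. On simulated IP values of 37225 probes, 98% of the probes changed by 1 on the log2 scale and 1.18% of the unchanged ones were called at the unadjusted P. The simulated noise was independent for each probe and mouse. It held no shift that the probes of a mouse or slide share, so the rates do not cover such shifts.

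The listed lncRNAs were matched within 1e-06 in the log2 difference and a relative 0.001 in P. Further named are the unlisted probes with the 2 highest and lowest IP differences among called members detected on all 6 arrays without overlap, and the members, listed or not, with the 2 highest and lowest mean ratios among those detected in both channels on all 6 arrays. The members and lists were chosen with earlier results of these data known. Alternatives covered background correction, scaling, filters, flags, bins, slide or replicate number as a block, deposited values and each mouse left out. Marker genes, pathways and sequences were not analysed here.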

Additional observations from a re-analysis of the deposited data

Results flagged for a closer look

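The unmatched difference in IP minus Sup between EP3B and EP3A probes had opposite signs in the groups. It was 0.0011, 0.0461 and 0.0457 in the controls and -0.0026, -0.0216 and -0.0213 in asthma, so that asthma minus control was -0.0461. This difference between the groups was not tested. At matched brightness all 6 arrays were below 0. No sample was searched for as an outlier, because the groups hold 3 mice each.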

How the results depend on the processing

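With each mouse left out in turn, the differences EP3B minus EP3A stayed on their side of 0: -14.4 to -14.0 points for IP detection, -12.9 to -12.5 for Sup detection, -2.53 to -2.31 for Sup detection at matched IP brightness, -0.38 to -0.35 for IP signal, -0.40 to -0.37 for Sup signal and -0.0118 to -0.0079 for IP minus Sup at matched brightness. With 5 arrays the exact test cannot go below 0.0625, so none passed its threshold there. Asthma minus control of IP minus Sup at matched brightness ran from -0.0045 to 0.0050 around 0. It was -0.0080 in the deposited values, -0.0022 with 10 bins, -0.0071 for probes detected in both channels on all arrays and -0.0032 after loess.

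IP detection at matched Sup brightness was 0.799 points with the other flag. IP minus Sup of EP3B over EP3A was 0.0845 without background correction, 0.0226 in the deposited values and -0.0115 for probes detected in both channels. Matched, it was -0.0004 without correction, -0.0126 in the deposited values, -0.0069 with 10 bins and 0.0082 with brightness from IP alone. For the 3764 brighter members the 5 settings were added after seeing the data.

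Counts of called members over the mice left out ranged from 121 to 631 higher and 1 to 13 lower in IP (0 to 113 higher after adjustment), from 13 to 269 and 10 to 139 in Sup (0 to 5 after adjustment), and from 250 to 746 and 0 to 2 for IP minus Sup (0 to 734 higher and 0 to 1 lower after adjustment). The higher share ranged from 2.6% to 13.9% of members in IP, against 3.36% to 15.4% of all tested probes. It was 0.221% to 4.51% against 0.351% to 4.18% in Sup, and 5.44% to 16.5% against 8.31% to 19.9% for IP minus Sup. IP gave 14 lower calls without background correction, 472 higher and 53 lower (18 and 1 after adjustment) in the deposited values, 121 and 33 (2 higher after adjustment) with 75th percentile scaling, 70 and 30 (1 higher) with quantile normalization, and 152 and 15 (0 higher) with the slide as a block. Sup gave 78 and 197 (1 higher after adjustment) without correction, 175 and 320 (6 and 6) in the deposited values, 161 higher (3 and 1) with percentile scaling, 85 higher (2 and 1) with quantile normalization, 10 lower with the slide as a block and 1 higher after adjustment without the filter. Without correction 1.34% of members were higher and 3.39% lower, against 1.43% and 5.29% of all tested probes. In the deposited values it was 3.71% and 6.79%, against 3.52% and 8.23%. The higher shares were 2.77% against 2.67% with percentile scaling and 1.46% against 1.45% with quantile normalization. With the slide as a block the lower share was 0.172% against 0.208%. IP minus Sup gave 1 lower (580 higher and 1 lower after adjustment) without correction, 10 lower (0 higher after adjustment) in the deposited values, 17 and 10 (0) with percentile scaling, 4 and 2 (0) with quantile normalization, 179 and 1 (42) with the slide as a block and 1 and 14 (0) with loess. Without correction 12.9% of members were higher after adjustment, against 15.4% of all tested probes. The lower share was 0.0223% against 0.0269% without correction and 0.223% against 0.135% in the deposited values. The shares under the scalings for IP minus Sup, and the higher shares with the slide as a block for both, are given above. In IP, quantile normalization gave 1.54% of members higher and 0.66% lower, against 1.61% and 0.878% of all tested probes. With percentile scaling the higher share was slightly below the 2.77% of all tested probes, and the lower share was 0.726% against 0.549%. The deposited IP values gave 10.4% and 1.17%, against 9.02% and 1.12%. The cause of these shifts was not tested.

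Replicate numbers did not pair the mice: deviations of same-numbered mice correlated at -0.37, 0.39 and 0.25 in IP and -0.35, 0.14 and 0.26 in Sup. With the replicate block, IP had 428 higher members (1 after adjustment) and Sup 63. These are 9.41% and 1.08% of the members, against 9.21% and 1.11% of all tested probes. Of the values of 18 named probes in 2 fractions under the alternatives, 407 kept direction and call, 31 lost the call, 27 gained it and 3 changed sign: RP24-226D9.3 in IP (-0.0483 with percentile scaling) and RP23-153M14.4 in Sup (0.0462 with the slide as a block, and -0.3064 to 0.0628 over the mice left out, above 0 without control mouse 2).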

Other observations

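The numbers in the EP3B probe names fall into a dense block up to the first gap of over 1000, with 3107 members, and 5385 members with higher numbers. The split was chosen after the names were seen and is given as a description. Members of the lower block were detected less often on each array, in 38.7% to 49.4% in IP and 57.3% to 63.4% in Sup, against 52.4% to 64.2% and 75.7% to 80.6% for the higher numbers. In IP, 8.52% of the 1374 tested members of the lower block and 5.93% of the 3172 tested members with higher numbers were called higher in asthma at the unadjusted P. The share of all tested probes was 6.86%, and the difference between the blocks was not tested. Of the 15 listed lncRNAs, 8 were in the lower block and 7 had higher numbers.

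The deposited log2 table held 4810 members (56.6%) and 34090 EP3A probes (70.9%). For all but 1 of the transcript probes, being held in that table went with being well above background in IP on at least 3 of the 6 arrays.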
